A study of Homo sapiens with 6 samples.

Results

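The metallothionein genes and 3 genes of zinc handling were examined in MCF10A, a nonmalignant cell line derived from human breast epithelium, with and without knockdown of the tumor suppressor gene DAB2IP. The 10 genes were MT2A, MT1E, MT1X, MT1F, MT1G, MT1M and MT1A, the zinc-sensing transcription factor gene MTF1, the zinc exporter gene SLC30A1 and the zinc importer gene SLC39A10. They were taken by name from the 58735 genes of the count table, and they had been selected on the same comparison of siDAB2IP with siControl libraries that is described here. The values of these 10 genes are therefore given as a description, without a test. RNA was taken 48 hours after transfection from cells that had received either an siRNA pool against DAB2IP (siDAB2IP, 3 libraries) or a nontargeting control pool (siControl, 3 libraries). All cells grew in DMEM/F12 with horse serum, insulin, epidermal growth factor, cholera toxin and hydrocortisone, a glucocorticoid, so both groups carried these agents. One siRNA pool was used, so loss of DAB2IP and other effects of that pool cannot be told apart. The labels do not say whether the 3 libraries of a group came from separate cultures, and p-values then measure only the spread between these libraries, which may be technical.

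Metallothioneins are very small, cysteine-rich proteins that bind zinc and copper and buffer the free zinc of the cell. When free zinc rises, MTF1 binds it, enters the nucleus and binds metal response elements in the promoters of metallothionein genes and of SLC30A1, which raises their transcription. Glucocorticoids and oxidative stress also raise metallothionein transcription. ZnT proteins (the SLC30A genes) move zinc out of the cytosol, and ZIP proteins (the SLC39A genes) move it in.

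The coding sequences of the 4 metallothionein members with enough reads for a test are shown for their many cysteine codons and for how alike they are. They are the spliced coding sequences of GENCODE 29 (GRCh38), and the capitals mark the in-frame cysteine codons (TGC or TGT). MT2A lies on chr16:56608199-56609497, MT1E on chr16:56625475-56627112, MT1F on chr16:56657694-56660698 and MT1X on chr16:56682424-56684196, all on the plus strand, and each coding sequence spans 3 exons.
MT2A: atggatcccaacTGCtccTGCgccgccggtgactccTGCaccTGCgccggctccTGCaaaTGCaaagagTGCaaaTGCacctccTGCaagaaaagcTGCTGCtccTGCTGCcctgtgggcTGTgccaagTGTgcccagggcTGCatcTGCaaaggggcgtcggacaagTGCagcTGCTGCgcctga
MT1E: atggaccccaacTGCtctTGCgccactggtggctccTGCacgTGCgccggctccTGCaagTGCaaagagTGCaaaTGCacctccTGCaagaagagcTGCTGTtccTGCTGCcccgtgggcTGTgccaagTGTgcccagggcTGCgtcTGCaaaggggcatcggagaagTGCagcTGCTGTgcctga
MT1X: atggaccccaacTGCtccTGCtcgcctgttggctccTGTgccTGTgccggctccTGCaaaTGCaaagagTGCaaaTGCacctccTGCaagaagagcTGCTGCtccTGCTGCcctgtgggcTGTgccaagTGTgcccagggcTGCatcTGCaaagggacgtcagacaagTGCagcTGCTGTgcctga
MT1F: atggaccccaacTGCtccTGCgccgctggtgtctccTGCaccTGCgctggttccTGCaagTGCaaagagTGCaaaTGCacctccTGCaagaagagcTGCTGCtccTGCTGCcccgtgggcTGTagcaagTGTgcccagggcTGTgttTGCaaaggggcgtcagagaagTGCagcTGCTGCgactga
Each of these sequences had 61 codons before the stop codon, and 20 of them, or 32.8%, coded for cysteine. MT2A and MT1X had 92.5% of their coding bases in common, as did MT1E and MT2A, whereas MT1F and MT1X shared 88.7%. MT1G, which had no counts, shared 93.7% with MT2A. Over the whole transcripts the genes were easier to tell apart. Of all stretches of 50 bases in the transcripts of a gene, the share found also in another gene was 3.02% for MT2A, 7.1% for MT1E, 1.22% for MT1F and 18.3% for MT1X. Most of the shared stretches of MT1X belong to AC026461.1, a transcript on the same strand that overlaps it and had 0 counts in all libraries. How reads in shared stretches were counted is not given in the sources used here, so the values of these genes carry this uncertainty.

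The 250 bases before the RefSeq transcript start (GRCh38.p14) are shown for MT2A and MT1X, which were lower with knockdown, for SLC30A1, whose groups overlapped, and for MT1H, a metallothionein gene without counts. Capitals mark matches on either strand to TGCACNC or TGCGCNC, the core of the metal response element, in which N is any base, and none of the matches printed overlaps another. The windows are chr16:56608334-56608583 for MT2A, chr16:56682220-56682469 for MT1X and chr16:56669564-56669813 for MT1H, on the plus strand, and chr1:211579162-211579411 for SLC30A1, on the minus strand.
MT2A: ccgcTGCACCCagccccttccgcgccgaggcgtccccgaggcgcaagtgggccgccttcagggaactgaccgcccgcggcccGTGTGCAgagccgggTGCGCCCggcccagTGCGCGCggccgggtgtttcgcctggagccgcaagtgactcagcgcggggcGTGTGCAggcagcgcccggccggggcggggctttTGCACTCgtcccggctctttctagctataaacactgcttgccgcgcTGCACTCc
MT1X: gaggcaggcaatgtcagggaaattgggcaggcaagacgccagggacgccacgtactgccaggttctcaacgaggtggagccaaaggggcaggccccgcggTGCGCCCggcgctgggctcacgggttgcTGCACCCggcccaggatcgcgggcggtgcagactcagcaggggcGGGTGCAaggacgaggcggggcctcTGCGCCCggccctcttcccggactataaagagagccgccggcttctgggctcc
SLC30A1: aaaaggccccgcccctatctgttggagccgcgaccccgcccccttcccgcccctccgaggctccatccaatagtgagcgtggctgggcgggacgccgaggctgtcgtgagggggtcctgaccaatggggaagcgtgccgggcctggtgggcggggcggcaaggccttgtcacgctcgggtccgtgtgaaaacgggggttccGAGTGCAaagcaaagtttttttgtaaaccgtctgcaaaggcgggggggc
MT1H: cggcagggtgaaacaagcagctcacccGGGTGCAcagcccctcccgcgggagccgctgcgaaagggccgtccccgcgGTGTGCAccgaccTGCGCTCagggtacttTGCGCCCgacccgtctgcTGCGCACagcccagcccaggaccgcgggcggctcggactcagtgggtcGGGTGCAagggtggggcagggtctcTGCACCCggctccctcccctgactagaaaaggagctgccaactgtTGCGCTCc
The MT2A window held 7 matches, the MT1X window 4 and the SLC30A1 window 1. Among the windows of the same length before 35116 RefSeq starts, 24.8% held at least 1 match, 0.37% held at least 4 and 0.0313% held at least 7. The MT1H window held 8 matches, which 0.0171% of windows reached, and MT1H had 0 counts in all 6 libraries. MT1B and MT4, which also had no counts, held 3 matches each. MTF1 had 0 matches in its window and SLC39A10 had 0 in both of its windows. Promoter sequences were matched for 5 of the 10 members, and MT1E, MT1F, MT1G, MT1M and MT1A had no entry. A match is a description of the sequence and not evidence of binding. The longest annotated MT2A transcript of GENCODE 29 starts upstream of the window shown. The SLC30A1 window lies wholly upstream of the start of this gene in the count table, chr1:211578742 on the minus strand. The bases directly before that start were not searched.

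Each library held between 16353783 and 21916062 counts, and 15430 genes had enough reads for a test with the quasi-likelihood method of edgeR. With a Benjamini-Hochberg adjusted p under 0.05, 1011 genes (6.55%) were higher and 1181 (7.65%) were lower in the siDAB2IP libraries. DAB2IP itself was at 103, 94.2 and 77.4 CPM (counts scaled to library size with TMM) in the siControl libraries and at 27.5, 25.6 and 22.4 CPM after knockdown (log2 fold change −1.86, SE 0.13, adjusted p = 9.71e-05 from edgeR). Of 6 basal epithelial markers, all 6 had counts in every library, and their summed level was 7077 to 8844 CPM in the siControl and 4110 to 4702 CPM in the siDAB2IP libraries. Of these, KRT5, KRT14 and KRT17 fell (adjusted p at most 0.0366 from edgeR), although KRT17 kept its call in 1 of the 6 fits with a library left out, and their part in the metallothionein values was not tested. The luminal markers summed to 285 to 297 CPM and 263 to 349 CPM, with PGR at 0 counts and ESR1 at most at 0.609 CPM, although FOXA1 rose (log2 fold change 1.05, SE 0.26, adjusted p = 0.0274 from edgeR), a call kept in 3 of those 6 fits. The 3 leukocyte markers summed to at most 0.325 CPM, with CD3E at 0 counts, the 3 endothelial markers to 7.42 to 15.97 CPM, and the 4 fibroblast markers, mainly DCN, to 146 to 293 CPM. DCN had a log2 fold change of −0.49 (SE 0.21, adjusted p = 0.151 from edgeR), and its adjusted p was 0.0247 with the replicate block, which takes the replicate number as a pairing. COL1A1, a fibroblast marker at a lower level, rose (log2 fold change 0.78, SE 0.16, adjusted p = 0.0129 from edgeR). This call was lost in 2 of the 6 fits with a library left out. In bulk RNA, a smaller number of cells that express a gene and less of its RNA per cell cannot be told apart.

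Of the 10 genes chosen, 8 had a count in at least 1 library and 7 had enough reads for a test. Of these 7, MT2A, MT1E, MT1X and MT1F passed the threshold as lower in the siDAB2IP libraries and 0 were higher, beside 7.65% and 6.55% of all genes tested. In 5 of the 7 the groups did not overlap, beside 35.9% of all genes tested. Because the genes were chosen by this comparison, nothing is read from these counts. A gene that is low in both groups enters the test only through its higher group, so the 7 do not stand for all 10 genes.

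MT2A encodes the most abundant metallothionein of most human cells. It was at 1203, 1235 and 1204.5 CPM in siControl replicates 1, 2 and 3 and at 462, 414 and 255 CPM in siDAB2IP replicates 1, 2 and 3. The siControl libraries lay within a narrow range, each siDAB2IP library was far below it, and siDAB2IP replicate 3 was the lowest. The mean of the siDAB2IP libraries, 377 ± 108 CPM (SD, n = 3), was 31.1% of the siControl mean of 1214 ± 18.0 CPM (SD, n = 3), and the log2 fold change was −1.69 (SE 0.19). Without siDAB2IP replicate 3 it was −1.47.

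MT1E, an isoform gene of the MT1 group, was at 206, 226 and 208 CPM in the siControl libraries and at 62.2, 51.1 and 38.4 CPM in the siDAB2IP libraries. The groups did not overlap, and replicate 3 was again the lowest of the knockdown libraries. The mean was 213 ± 11.1 CPM against 50.5 ± 11.9 CPM (SD, n = 3 in each group), a level 4.22-fold higher in the siControl group, with a log2 fold change of −2.08 (SE 0.16).

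MT1X, another MT1 isoform gene, differed most among the members, with a log2 fold change of −2.71 (SE 0.21). It was at 38.6, 33.7 and 37.6 CPM in the siControl libraries and at 7.62, 3.88 and 5.33 CPM in the siDAB2IP libraries. Here siDAB2IP replicate 2, not replicate 3, was the lowest, and the highest siDAB2IP library remained far under the lowest siControl library. The mean with knockdown was 15.3% of the siControl mean. These levels rest on 619, 725 and 641 reads against 135, 70 and 92 reads.

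MT1F was expressed near the lower limit of what these libraries can measure. It had 27, 25 and 38 reads in the siControl libraries and 8, 10 and 8 reads in the siDAB2IP libraries, or 1.68, 1.16 and 2.23 CPM against 0.451, 0.554 and 0.464 CPM. The groups did not overlap, and the siDAB2IP libraries were close together, while the siControl libraries spread widely. The log2 fold change was −1.76 (SE 0.38). MT1F did not pass the threshold without siControl replicate 3, at a log2 fold change of −1.53.

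MT1G and MT1A had 0 counts in all 6 libraries, which allows at most 0.139 to 0.187 CPM in a library, a limit of 3 counts that covers counting error only. MT1M had 2 counts, both in siControl replicate 3, and 0 in the other 5 libraries. No fold change is given for these genes, since both groups were at or under that limit. They lie between expressed members of the same gene cluster, MT1M and MT1A between MT1E and MT1F and MT1G between MT1F and MT1X.

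**Figure D1:**
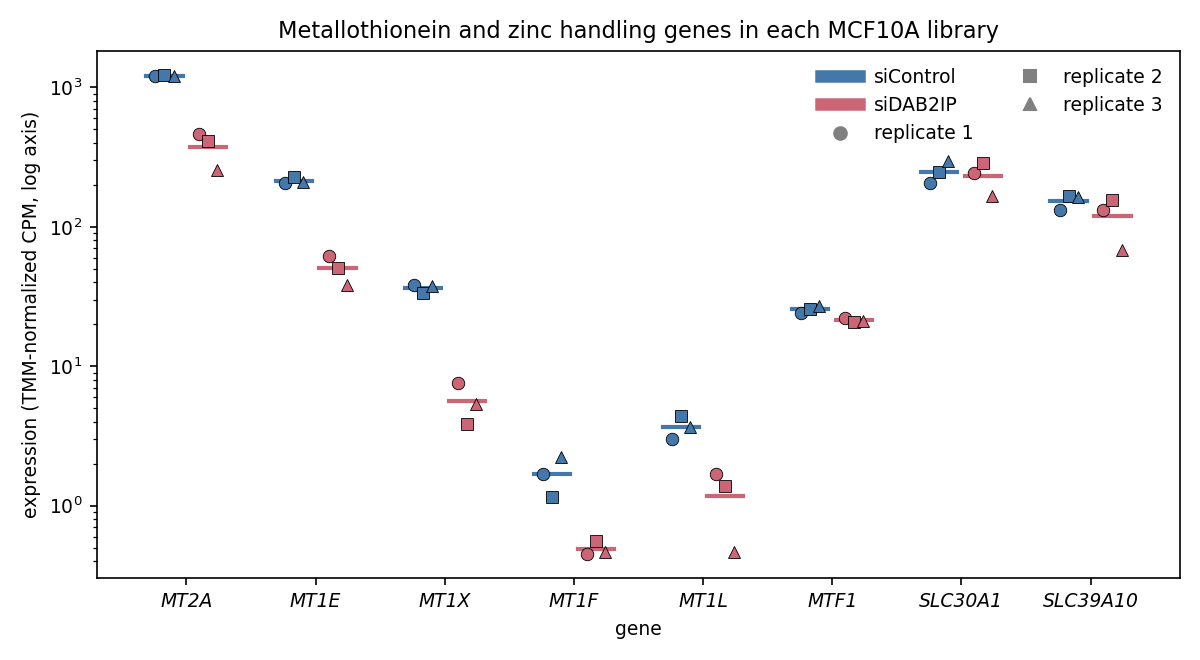
Expression of the metallothionein genes with enough reads for a test and of MTF1, SLC30A1 and SLC39A10 in each library. The vertical axis is TMM-normalized CPM on a log axis, the point shapes are replicate numbers, colors are the groups and horizontal lines are group means. The siDAB2IP points of MT2A lie between 255 and 462 CPM, under all siControl points at 1203 to 1235 CPM, whereas those of SLC30A1 and SLC39A10 overlap the siControl points.

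All 21 metallothionein genes and pseudogenes of the table were then considered, 7 of them members. Of the 14 others, 5 had a count and 1, MT1L, had enough reads for a test. MT1L is a transcribed pseudogene of the cluster, and it was at 2.99, 4.41 and 3.64 CPM in the siControl and at 1.69, 1.38 and 0.464 CPM in the siDAB2IP libraries. The groups did not overlap, and MT1L fell by 1.64 on the log2 scale (SE 0.39, adjusted p = 0.0223 from edgeR). This call was lost without siControl replicate 2 (adjusted p = 0.0963) and without siControl replicate 3 (adjusted p = 0.0595). The pseudogenes MT1P1, MT1XP1, MT2P1 and MT1DP had at most 4 counts in any library. MT1P1 overlaps FANCC on the same strand, and its counts are uncertain. With MT1L, 5 of the 5 metallothionein genes tested with edgeR were lower and 0 were higher, beside 7.65% and 6.55% of all genes tested. The counts were the same at an unadjusted p under 0.05, where 2398 of all 15430 genes tested were lower and 2238 higher. The 5 are made up of MT1L and 4 members, which were chosen on this comparison. DESeq2, which gave an unadjusted p for 10 metallothionein genes, called 5 lower and 0 higher at the adjusted threshold. How many of the 10 had an adjusted p is not given here.

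The reads of all metallothionein genes together made up 0.145% of all counts in the siControl libraries and 0.0439% in the siDAB2IP libraries. Their summed level was 1452, 1500 and 1457 CPM in the siControl libraries and 534, 471 and 300.1 CPM in the siDAB2IP libraries. The sum was lower in each siDAB2IP library than in any siControl library, with replicate 3 the lowest. MT2A supplied 82.6 ± 0.277% of the metallothionein reads in the siControl and 86.5 ± 1.41% in the siDAB2IP libraries (SD, n = 3), so the sum follows MT2A, one of the genes chosen.

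Levels of different genes were compared in FPKM, which divides by gene length. The length used for MT2A and MT1X covers the whole gene with its introns, so their FPKM values are low relative to the mature transcript. In the siControl libraries the order was MT2A (926 ± 16.1 FPKM), MT1E (201 ± 11.01), SLC30A1 (45.1 ± 8.06), SLC39A10 (22.1 ± 2.80), MT1X (20.5 ± 1.41), MTF1 (3.16 ± 0.181) and MT1F (0.887 ± 0.279; SD, n = 3). Among neighbours in this order, only SLC39A10 and MT1X had overlapping ranges, 18.9 to 23.9 FPKM and 18.9 to 21.5 FPKM. In the siDAB2IP libraries MT1E (47.5 ± 11.3 FPKM) overlapped SLC30A1 (41.9 ± 11.04), and MT1X (3.13 ± 1.06) overlapped MTF1 (2.63 ± 0.107). MT2A (287 ± 82.7) was still above all other members.

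Within a library the FPKM ratio of MT2A to MT1X was 42.6, 50.1 and 43.7 in the siControl and 82.8, 146 and 65.3 in the siDAB2IP libraries. The ratio of MT2A to MT1E was 4.74, 4.42 and 4.68 against 6.02, 6.56 and 5.39. For both ratios the groups did not overlap, so MT1X and MT1E were lower by a larger factor than MT2A. Ranked by FPKM in a library, MT2A was gene 22 to 24 in the siControl libraries and gene 59 to 99 in the siDAB2IP libraries. MT1X moved from ranks 1866 to 2165 to ranks 7405 to 9797.

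MTF1, on chr1:37809567-37859620 on the minus strand, was at 24.1, 25.7 and 26.9 CPM in the siControl libraries and at 22.3, 20.7 and 21.2 CPM in the siDAB2IP libraries. The groups did not overlap, but the difference was small, with a log2 fold change of −0.26 (SE 0.11), and it did not pass the threshold. Its log2 fold change lay between −0.32 and −0.19 under all 15 alternative settings. The mean with knockdown was 83.6% of the siControl mean, against 31.1% for MT2A.

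SLC30A1 encodes ZnT1, the zinc exporter of the plasma membrane, and lies on chr1:211571568-211578742 on the minus strand. It was at 207, 246 and 296 CPM in the siControl libraries and at 244, 286 and 166 CPM in the siDAB2IP libraries. The groups overlapped, with siDAB2IP replicates 1 and 2 within the siControl range and replicate 3 below it. The log2 fold change was −0.11 (SE 0.19), and it was 0.09 without siDAB2IP replicate 3 and 0.02 without siControl replicate 3, so its sign rested on single libraries. In siDAB2IP replicates 1 and 2, MT2A, MT1E and MT1X were below the siControl range while SLC30A1 was within it.

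SLC39A10 encodes the importer ZIP10 and lies on chr2:195575977-195737702 on the plus strand. It was at 132, 166 and 165 CPM in the siControl libraries and at 133, 157 and 68.5 CPM in the siDAB2IP libraries. Replicates 1 and 2 of the knockdown lay within the siControl range, and replicate 3 was the lowest of all. The log2 fold change of −0.37 (SE 0.25) did not pass the threshold, and it was −0.09 without siDAB2IP replicate 3 and −0.61 without siDAB2IP replicate 2. SLC39A10 passed the threshold in 1 of the 15 alternative settings, that with no filter on low counts, at a log2 fold change of −0.38.

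Libraries that share a replicate number were also set side by side. The siDAB2IP level of MT2A was 0.384, 0.335 and 0.212 of the siControl level of the same number, that of MT1E was 0.302, 0.226 and 0.184, and that of MT1X was 0.198, 0.115 and 0.142. All 3 genes were lower in each pair. For SLC30A1 these ratios were 1.18, 1.17 and 0.56 and for SLC39A10 they were 1.01, 0.945 and 0.416, so both were near or above 1 in 2 pairs and low in replicate 3.

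**Figure D2:**
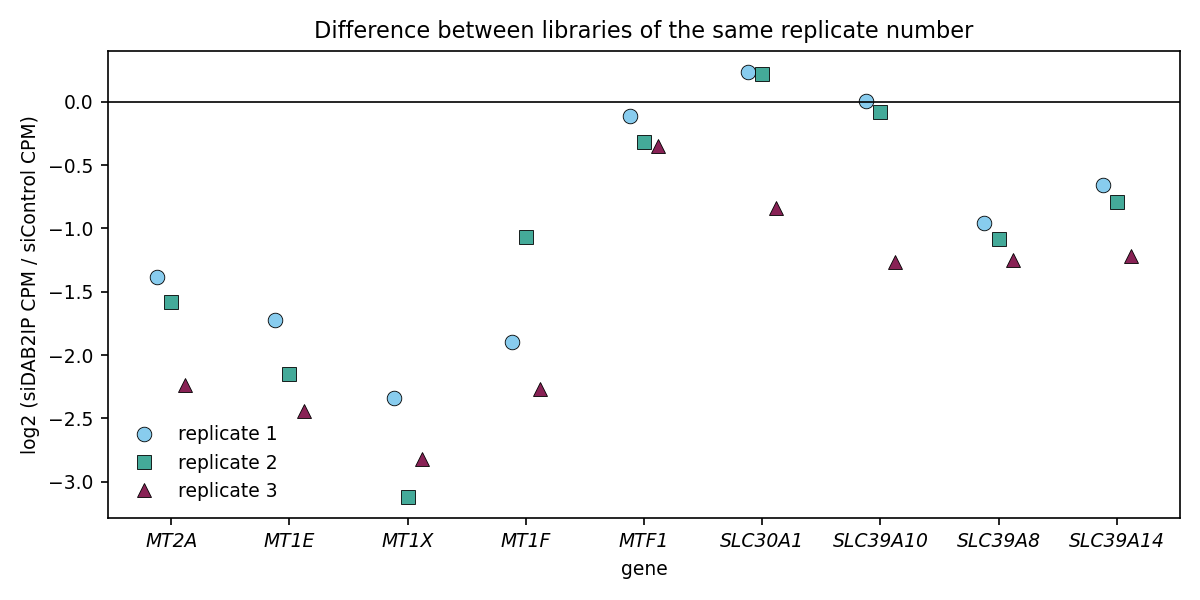
Log2 ratio of siDAB2IP to siControl CPM within each replicate number, for 9 genes of metal handling. Each point is 1 pair of libraries and the line at 0 marks equal levels. The metallothionein, SLC39A8 and SLC39A14 points lie under 0 in all 3 pairs, whereas SLC30A1 lies at 0.24, 0.22 and −0.84.

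The 2 families of zinc transporters hold 24 genes, of which 17 were tested. Leaving out SLC30A1 and SLC39A10, 15 were tested, and 3 rose and 3 fell, beside 6.55% and 7.65% of all genes tested. The median log2 fold change of the 15 was 0.04, and that of all genes tested was 0.01. Of these 6 genes, 5 encode ZIP importers and 1 a ZnT exporter.

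SLC39A8 encodes ZIP8, an importer of zinc and manganese at the plasma membrane. It was at 507, 533 and 448 CPM in the siControl libraries and at 261, 252 and 189 CPM in the siDAB2IP libraries. The groups did not overlap, and SLC39A8 fell by 1.08 on the log2 scale (SE 0.14, adjusted p = 0.00183 from edgeR). SLC39A14 encodes ZIP14, the closest relative of ZIP8 and also a carrier of iron and manganese. It was at 565, 554 and 596 CPM in the siControl and at 359, 319 and 255 CPM in the siDAB2IP libraries, without overlap, and fell by 0.88 on the log2 scale (SE 0.13, adjusted p = 0.00372 from edgeR). Both passed the threshold under all 15 alternative settings. In FPKM these were, with SLC39A6 (ZIP6), the 3 zinc transporter genes with the highest mean in the siControl libraries, at 75.9 ± 6.82 and 81.6 ± 2.96 FPKM (SD, n = 3) and, for SLC39A6, 79.7 ± 6.61 FPKM.

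The 3 ZIP genes that rose were SLC39A7, SLC39A11 and SLC39A3. SLC39A7 encodes ZIP7, which releases zinc from the endoplasmic reticulum into the cytosol. It was at 170, 142 and 150.2 CPM in the siControl and at 246, 220.2 and 241 CPM after knockdown (log2 fold change 0.61, SE 0.11, adjusted p = 0.00588 from edgeR). SLC39A11 (ZIP11) was at 32.1, 31.3 and 26.1 CPM against 43.4, 44.7 and 45.7 CPM, a log2 fold change of 0.58 (SE 0.11, adjusted p = 0.0101 from edgeR). The groups did not overlap for either gene. SLC39A3 (ZIP3) had a log2 fold change of 0.53 (SE 0.14, adjusted p = 0.0331 from edgeR), and when 1 library at a time was left out it kept its call in 2 of 6 fits. SLC39A6, the ZIP family member closest to SLC39A10, had a log2 fold change of 0.04 (SE 0.10, adjusted p = 0.842 from edgeR). SLC39A4 had a value of −0.35 (SE 0.11, adjusted p = 0.0634 from edgeR), and it passed the threshold with the replicate block (adjusted p = 0.0479), the fit that takes the replicate number as a pairing of the libraries.

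Of the ZnT genes, 6 were tested, and 1 fell and 0 rose, beside 7.65% and 6.55% of all genes tested. The gene that fell was SLC30A6, which encodes a ZnT protein of the early secretory pathway, at 66.2 ± 1.36 CPM in the siControl and 53.9 ± 1.27 CPM in the siDAB2IP libraries (SD, n = 3). It had a log2 fold change of −0.30 (SE 0.09, adjusted p = 0.0483 from edgeR), but this call was kept in only 5 of the 15 alternative settings. At an unadjusted p under 0.05, 2 of the 6 ZnT genes passed, both with negative values, beside 4636 of all 15430 genes tested. With DESeq2 0 ZnT genes passed the adjusted threshold.

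**Figure D3:**
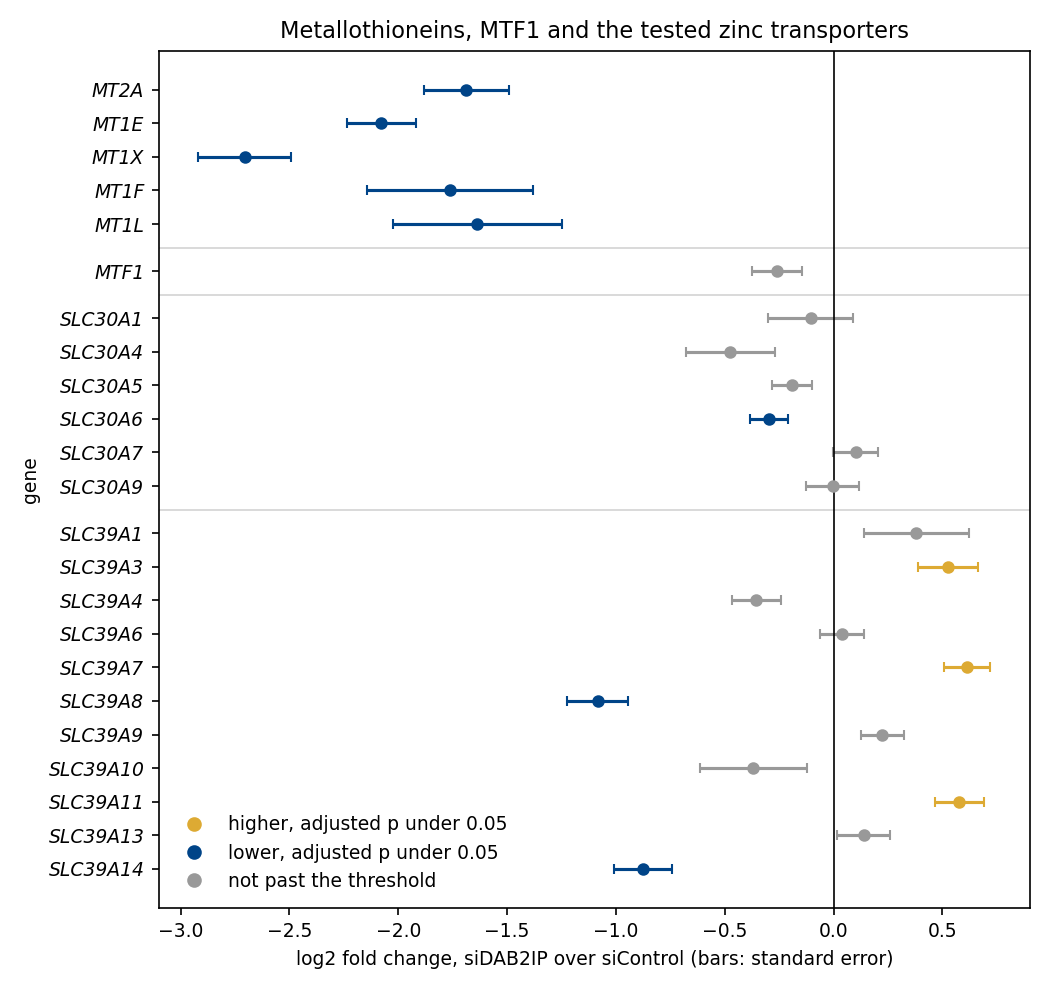
Log2 fold change of siDAB2IP over siControl for the metallothionein genes, MTF1 and the 17 zinc transporter genes tested, with bars for the standard error and colors for the adjusted p of edgeR. The metallothionein genes lie between −2.71 and −1.64, and the zinc transporters lie between −1.08 and 0.61 on both sides of 0.

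MTF1 and 7 other transcription factors known to act on metallothionein promoters were tested, and 2 of the 7 others fell and 0 rose, beside 7.65% and 6.55% of all genes tested. Of the 7, 0 fell when siControl replicate 2 or siDAB2IP replicate 1 was left out, although 5 passed with negative values at an unadjusted p under 0.05 with all libraries, and 1 fell when siControl replicate 1 or siDAB2IP replicate 2 was. USF1 passed with a positive value only without adjustment of p, at a log2 fold change of 0.32, and DESeq2 also called 0 higher. USF2, a factor that binds E boxes, was at 99.9, 97.4 and 88.2 CPM in the siControl and at 63.5, 71.8 and 72.2 CPM after knockdown (log2 fold change −0.46, SE 0.10, adjusted p = 0.0148 from edgeR). STAT3, which carries the response to interleukin 6, had a log2 fold change of −0.39 (SE 0.11, adjusted p = 0.0401 from edgeR) and kept its call in 9 of the 15 alternative settings. The gene of the glucocorticoid receptor, NR3C1, had a log2 fold change of −0.21 (SE 0.09, adjusted p = 0.164 from edgeR).

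Genes that respond to glucocorticoids were described beside the metallothioneins because hydrocortisone was in the medium of both groups. Of 6 such genes, all 6 were tested, 4 fell and 0 rose, as was the case with DESeq2 and, for the 0, without adjustment of p, and the median log2 fold change was −0.45. Of all genes tested, 7.65% fell and 6.55% rose. SGK1, a kinase gene, was at 67.7, 66.8 and 54.3 CPM in the siControl and at 24.0, 21.2 and 26.7 CPM after knockdown (log2 fold change −1.39, SE 0.13, adjusted p = 0.000346 from edgeR). TSC22D3, which encodes the glucocorticoid-induced leucine zipper protein, had a log2 fold change of −1.07 (SE 0.24, adjusted p = 0.0171 from edgeR). ZBTB16 and PER1 had smaller differences of −0.52 and −0.38 (adjusted p at most 0.0284 from edgeR). FKBP5, a widely used glucocorticoid target, had a log2 fold change of −0.21 (SE 0.16, adjusted p = 0.421 from edgeR). The number of these genes that fell was 1 when either siControl replicate 1 or siDAB2IP replicate 2 was left out, and 2 when siControl replicate 2 or replicate 3 was, and SGK1 passed the threshold under all 15 alternative settings.

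Of 11 genes of metal and oxidative stress, 3 rose and 1 fell, beside 6.55% and 7.65% of all genes tested. HMOX1, the gene of heme oxygenase 1 and a target of NFE2L2 (NRF2), was at 2.31, 2.79 and 2.52 CPM in the siControl and at 6.94, 7.86 and 29.6 CPM in the siDAB2IP libraries. Each siDAB2IP library was above all siControl libraries, and siDAB2IP replicate 3 was far above the other siDAB2IP libraries. The log2 fold change of HMOX1 was 2.53 (SE 0.52, adjusted p = 0.0127 from edgeR), and it was 1.54 without siDAB2IP replicate 3. GCLC and GCLM, the subunit genes of the enzyme that starts glutathione synthesis, rose by 0.55 (adjusted p = 0.0122 from edgeR) and 0.63 (adjusted p = 0.0217 from edgeR) on the log2 scale. DNAJB1, a heat shock gene, fell by 0.59 (adjusted p = 0.00528 from edgeR), while HSPA1A had a log2 fold change of −0.40 (SE 0.13, adjusted p = 0.0699 from edgeR, and 0.0247 with the replicate block). With the replicate block 5 rose and 3 fell. Leaving out siControl replicate 2 left 0 that rose in edgeR (5 passed with all libraries without adjustment of p, and 4 rose with DESeq2), and leaving out siControl replicate 1 or replicate 3 left 1.

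Copper, which metallothioneins also bind, and iron were considered next. Of 11 genes of copper handling, 1 rose and 0 fell, and 3 rose with the replicate block, among them ATP7A (log2 fold change 0.47, adjusted p = 0.0277 from edgeR with the block and 0.0662 without). None fell with DESeq2 or, without adjustment of p, in edgeR. The gene that rose was ATOX1, which encodes the chaperone that carries copper to the ATP7A and ATP7B pumps, at 17.6 ± 2.59 CPM in the siControl and 32.3 ± 5.45 CPM in the siDAB2IP libraries (SD, n = 3; log2 fold change 0.87, SE 0.16, adjusted p = 0.00804 from edgeR). Of 11 genes of iron handling, 9 were tested, and 1 fell and 0 rose, as with DESeq2 and, for the 0, without adjustment of p. This was ACO1, which encodes an iron-responsive regulator of mRNAs, with a log2 fold change of −0.53 (SE 0.09, adjusted p = 0.0061 from edgeR). FTH1, the ferritin heavy chain gene, had a log2 fold change of −0.22 (SE 0.17, adjusted p = 0.415 from edgeR). The changed genes were 9.09% of the copper genes and 11.1% of the iron genes tested, beside 14.2% of all genes tested.

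The metallothionein members lie together in 1 cluster on chromosome 16, and its neighbours were examined for their own values. The cluster spans chr16:56565049-56684196 and holds 16 genes and pseudogenes, 15 of them on the plus strand, of which 7 had a count. Within 500 kb on either side 14 other genes were tested, and 1 rose and 0 fell, so that 7.14% changed, beside 14.2% of all genes tested. At an unadjusted p under 0.05, 3 of the 14 passed, beside 4636 of all 15430 genes tested. With DESeq2 1 neighbour rose and 1 fell. Their log2 fold changes lay between −0.82 and 0.79, with a median of −0.23. The nearest tested gene on each side, BBS2 and NUP93, had log2 fold changes of 0.24 (SE 0.13) and 0.09 (SE 0.11). BBS2 spans chr16:56466836-56520283 on the minus strand and NUP93 chr16:56730105-56850286 on the plus strand. Their lowest coordinates lie at −141 kb and 122 kb from the start of MT2A, and both genes lie closer than this to the edges of the cluster. The gene that rose was AC009090.6 (log2 fold change 0.79, SE 0.18, adjusted p = 0.0173 from edgeR), 569 kb from the MT2A start. AC009090.6 did not pass without siControl replicate 1, 2 or 3. It lies within FAM192A on the opposite strand. Whether counting used the strand is not given, so its counts are uncertain.

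**Figure D4:**
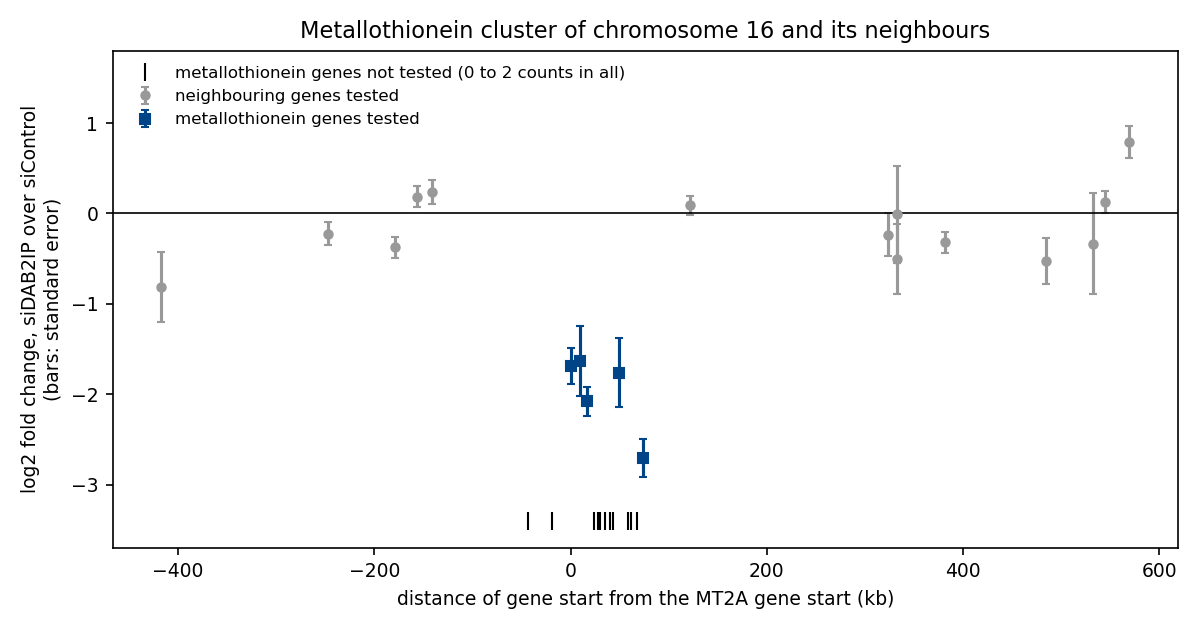
Log2 fold change of siDAB2IP over siControl (bars, standard error) against the distance in kb of each gene's start from the MT2A start. The start is the lowest coordinate of a gene on either strand. Blue squares are the 5 metallothionein genes tested, ticks at the lower edge the metallothionein genes of the cluster with 0 to 2 counts in all, and gray points the 14 neighbours tested. The metallothionein genes lie at −1.64 or lower and the neighbours at −0.82 or higher.

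The pattern over the 6 libraries was summarized as the mean of the standardized log2 CPM of MT2A, MT1E, MT1X and MT1F. SLC30A1 had a Pearson correlation of 0.33 with this profile, SLC39A10 one of 0.59 and MTF1 one of 0.93. Among 10825 other genes with a mean of at least 5 CPM, the 5 most like it were GAS1, HR, SLC25A29, PLA2R1 and VIM, with correlations of 0.997 to 0.999. PLA2R1 was at 75.7, 68.9 and 75.2 CPM in the siControl and at 31.6, 26.0 and 21.8 CPM in the siDAB2IP libraries. These correlations are over 6 libraries that fall into 2 groups, so any gene with a clear difference between the groups scores high, and they are given as a description.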

How the data were processed

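RNA-Seq libraries of MCF10A cells, 3 siControl and 3 siDAB2IP, were analyzed. The authors deposited a table of raw counts per gene and a table of FPKM values, which are the counts divided by gene length and by a scaled library total. The submitters' processing notes name STAR 2.6.1d, featureCounts 1.5.0-p3, DESeq2 1.20.0, edgeR 3.24.3 and hg38, without their roles. Whether counting used the strand is not given in the sources used here.

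Counts were tested in R 4.3.3 with edgeR 4.0.16 (filterByExpr, TMM, quasi-likelihood test) with p-values of all 15430 genes tested adjusted by Benjamini-Hochberg and a threshold of 0.05. CPM values are TMM-normalized, and SEs were derived from the F statistic. The test was checked on simulated counts. At these depths, 3 counts correspond to 0.139 to 0.187 CPM. Alternatives were DESeq2 1.42.0, limma 3.58.1 on log2(FPKM + 1) or log2(FPKM + 0.1), other scalings and filters, the replicate block and leaving out each library.

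The members, gene lists, tests and alternatives were chosen with earlier results of these data known. The genes named were DAB2IP, the members, the metallothionein genes with a count, the changed genes of each list and the 5 genes most like the metallothionein profile. Neighbours entered by position. BBS2, NUP93, SLC39A4, SLC39A6, NR3C1, USF1, FKBP5, HSPA1A, FTH1, ATP7A, DCN and the metallothionein genes without counts were named after their values were seen. Libraries with the same replicate number deviated together from their group means (correlation 0.265, 0.155 and 0.255, against at most 0.0207 for different numbers). Deviations within a group cancel out, so positive values for the same number by themselves lower those for different numbers. The numbers were taken as a pairing only in the replicate block and in the ratios within a number. The main edgeR test was unpaired, so its p-values do not use the pairing. This pairing comes from the data, since the labels do not say what a number stands for.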

Additional observations from a re-analysis of the deposited data

How the results depend on the processing

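The number of genes that were higher was 659 with limma on log2(FPKM + 0.1) and 176 with limma on log2(FPKM + 1) when all genes with any count entered, and the number lower was 758 and 202. Leaving out each library in turn gave 264 to 1172 genes higher and 459 to 1352 lower, with the fewest without siControl replicate 2. Of the metallothionein genes, 3 were lower with at least 10 counts in every library, where MT1F and MT1L were not tested, 3 in that limma fit of all genes with any count, and 3 to 5 without each library, with 3 without siControl replicate 3. Over the 15 settings the log2 fold change lay between −1.86 and −1.47 for MT2A, −2.25 and −1.91 for MT1E, and −2.99 and −2.41 for MT1X. Of the zinc transporters, with or without SLC30A1 and SLC39A10, 1 rose in the same limma fit, and 2 to 3 rose and 2 to 3 fell without each library. With the replicate block, which takes the numbers as a pairing, 1479 genes were higher and 1754 lower, 5 metallothionein genes and 4 zinc transporters were lower, and of the genes given with a log2 fold change, the block changed the calls of SLC39A4, HSPA1A and DCN, which fell, and ATP7A, which rose, and no other. The median log2 fold change of all genes stayed between −0.01 and 0.05 under all settings. The cause of these shifts was not tested. Genes at low levels rest on few reads, and their fold changes are the least certain. MT1F in the siDAB2IP libraries, for example, had 8 to 10 reads a library, or 0.451 to 0.554 CPM.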
